A study of Mus musculus with 98 samples.

Results

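The hypothalamic libraries of mice with humanized livers were compared with those of control mice, with 2 regions pooled in 1 model: the arcuate nucleus (labelled ARC) and the suprachiasmatic nucleus (labelled SCN). The pool holds 44 of the 98 libraries of the series, chosen by tissue from the labels: 20 from the Hu arm (10 ARC and 10 SCN) and 24 from the Mu arm (12 ARC and 12 SCN). All mice were FRGN males aged 10 weeks, lacking Fah, Rag2 and Il2rg on a non-obese diabetic background, so that both arms lack an adaptive immune system. The Hu arm carried transplanted human hepatocytes in the liver, and the labels state that mice were kept only with repopulation above 70%. The Mu arm carried transplanted murine hepatocytes. Both arms received cycles of nitisinone (NTBC), the drug that prevents hepatocyte death when FAH is missing, with sulfamethoxazole and trimethoprim and dextrose water. Each region of the Mu arm has 2 libraries at each of zeitgeber times (ZT) 2, 6, 10, 14, 18 and 22 h. The Hu arm has 2 at ZT 2, 10, 14 and 18 and 1 at ZT 6 and 22. Brain cells are of mouse origin in both arms. The comparison therefore asks which brain transcripts differ with the species of the liver cells, averaged over the day and over both regions.

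The arcuate nucleus lies beside the median eminence, where blood-borne signals reach the brain, and its Agrp/Npy and Pomc/Cartpt neurons drive and restrain feeding. The suprachiasmatic nucleus holds the light-entrained master clock. The liver is the main source of circulating retinol-binding protein, which carries retinol to cells bearing the receptor STRA6, and it answers pituitary growth hormone by releasing IGF-1.

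The regional labels were checked against marker genes, with levels as CPM (counts divided by the library total in mega counts, the total scaled by the trimmed mean of M values, TMM). Of 15424 genes tested, 72.4% differed between the regions (edgeR quasi-likelihood F test, Benjamini-Hochberg adjusted p under 0.05), so the dissections differ. Of 7 arcuate markers 6 were higher in the libraries labelled ARC, among them Agrp, with a median of 6.59 CPM against 0.524 in those labelled SCN, and Ghrh, with 6.16 against 0.638. Pmch and Hcrt, peptide genes of the lateral hypothalamus, were also high in ARC, so these libraries were not arcuate tissue alone. Their ARC medians were 498 and 95.4 CPM in Hu and 569.5 and 106 in Mu. In SCN they were 1.38 and 0.149 in Hu and 1.63 and 0.128 in Mu. Markers of the suprachiasmatic nucleus did not follow the label. Of 18 tested, 2 were higher in the libraries labelled SCN (Prok2 and Avpr1a) and 10 were higher in those labelled ARC. Syt10 had a median of 14.5 CPM in ARC and 1.77 in SCN, and its 2 ranges do not overlap. Vip, the defining peptide of the ventral nucleus, had medians of 4.18 CPM in ARC and 3.85 in SCN (log2 difference SCN minus ARC 0.17 ± 0.36, SE, adjusted p = 0.694 by edgeR). Avp had 198 CPM in ARC and 64.6 in SCN. "ARC" and "SCN" below are thus the names on the labels, and a tissue rich in suprachiasmatic markers was not seen in the libraries labelled SCN.

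The ARC libraries held 23.7 to 47.1 M (mega) counts each and the SCN libraries 25.5 to 34.9 M. Neither the total, the mitochondrial share, the share of the 100 largest genes nor the number of genes with a count differed detectably between arms within a region (8 permutation tests of 10 against 12 libraries, smallest adjusted p = 0.656). Transcripts of Fah, Rag2 and Il2rg were counted in both arms at like levels; for Fah the pooled log2 difference was 0.04 ± 0.05 (SE). Both arms carry the same 3 mutations, and a disrupted gene can still be transcribed, so these levels do not check the genotype.

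The hypothalamus differed little between the arms. Stra6, the cell-surface receptor that takes up retinol from its blood carrier, and Depp1, a small protein induced by fasting and by forkhead factors, were 2.34-fold and 2.01-fold higher in Hu libraries. Gstm1, a glutathione transferase of detoxification, was 1.12-fold higher. Gpr17, a receptor that marks maturing oligodendrocyte precursors, Sbk3, Tlcd1, Gh, Tcf23, Fam227b, Glud1 and Prss50 were lower. These 11 genes, 3 higher and 8 lower in Hu, are all that passed an adjusted p under 0.05 among 15424 tested (edgeR quasi-likelihood test with region, cosine and sine of ZT and arm), which is 0.0713%. At an unadjusted p under 0.05 there were 766 genes (4.97%), 321 higher and 445 lower. The median log2 difference over all genes was 0.0013. For 93.3% of genes the 95% interval of the difference lay within 0.5 log2 units of 0. Within this fit, larger shifts shared by both regions were thus not seen for them. The intervals take the libraries as independent, and can be too narrow where 2 libraries share a mouse.

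Libraries of equal arm, time and number may come from the same mouse, which the labels do not say, and the test above takes them as independent. With the mouse as a random block (limma-voom), 14 genes passed (0.0908%), 3 higher and 11 lower. They contain the 11, and Alpk1 and Entpd2 are among the others. That fit uses 1 correlation for all genes, 0.065, while several called genes had a much higher one (given below). When the counts of both libraries were summed, so that each of 21 mice entered once, 0 genes passed in edgeR (647 at an unadjusted p under 0.05). Stra6 then had a log2 difference of 1.14 with an adjusted p of 0.164. The estimates stayed near those of the pooled fit, but no gene passed with the summed mouse as the unit. DESeq2, with libraries as independent, called 39 genes, 10 of them among the 11. The 11 calls are thus calls over libraries.

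Stra6 (ENSMUSG00000032327, GRCm38 chromosome 9, 58063788 to 58153996, plus strand) was the gene with the smallest p. In ARC its level was lowest at 2.97, median 5.35 and highest at 10.3 CPM in 10 Hu libraries, against 1.06, 2.24 and 3.76 in 12 Mu libraries. In SCN it was 4.60, 8.11 and 16.8 CPM in Hu against 1.16, 4.18 and 6.47 in Mu. The arms overlap at their edges. In ARC 8 and in SCN 6 of 10 Hu values exceeded every Mu value of the region, and the 20 Hu values all exceeded the median of the Mu arm. The pooled log2 difference was 1.23 ± 0.17 (SE, 95% interval 0.89 to 1.56, adjusted p = 4.78e-05, edgeR). The mean was higher in Hu at each of the 12 combinations of region and time. The SCN libraries alone gave 1.08 ± 0.24, with an adjusted p over all genes of 0.852 in the edgeR fit of that region. In skeletal muscle, fitted apart, the difference was of the opposite sign and did not pass (log2 -0.36, adjusted p = 0.199 by edgeR).

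Stra6 stood apart from its pathway. Of 22 tested genes of retinoid uptake and signalling, Stra6 was the 1 called, and Rdh10, which oxidizes retinol, was the other gene with an unadjusted p under 0.05 (log2 0.11 ± 0.04, adjusted p = 0.681 by edgeR). The median log2 difference of these 22 genes was -0.03, and 8 of 22 were positive. The ligand carrier Rbp4 had a log2 difference of -0.01 ± 0.07. Among the genes that retinoic acid induces through its receptors, Rarb had 0.01 ± 0.12, Cyp26b1, which degrades retinoic acid, had -0.22 ± 0.22 (-0.34 with the mouse as block), and Dhrs3, which reduces retinal, had 0.03 ± 0.08. The receptors Rara, Rarg, Rxra and Rxrb each lay within 0.03 log2 units of 0.

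Depp1 (ENSMUSG00000048489, chromosome 6, 116650609 to 116652794, plus strand) was scarce. Its level in ARC was 0.548, 1.08 and 2.54 CPM (lowest, median and highest) in Hu against 0.253, 0.604 and 1.56 in Mu, from 6 to 74 counts a library. In SCN it was 0.956, 1.74 and 4.53 CPM in Hu against 0.525, 0.779 and 2.19 in Mu. The arms overlap more than for Stra6, with 2 of 10 Hu libraries in ARC and 3 of 10 in SCN above every Mu library. It differed by 1.01 ± 0.18 log2 units (adjusted p = 0.00361, edgeR), and the mean was higher in Hu at all 12 combinations of region and time. The highest library of each arm and region came from ZT 18: in Hu number 2, in Mu number 1. Without the Hu mouse numbered 2 at ZT 18 the difference was 0.85 with an adjusted p of 0.0247. Without the ZT 2 libraries the adjusted p was 0.0846 (edgeR). Depp1 was also higher in Hu in muscle (log2 1.50, adjusted p = 0.0205 by edgeR).

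Gstm1 (ENSMUSG00000058135, chromosome 3, 108012255 to 108017973, minus strand) was abundant and shifted by little. Its ARC level was 156, 180 and 202 CPM in Hu and 142, 161 and 192 in Mu. In SCN it was 163, 184 and 198 in Hu and 147, 161 and 191 in Mu. The ranges overlap in both regions, and 19 of 20 Hu values exceeded the median of the Mu arm. Its log2 difference was 0.16 ± 0.03 (adjusted p = 0.0151, edgeR). Gstm1 belongs to a family of near-identical paralogs among which reads can be split. Of 16 tested xenobiotic and antioxidant genes it was the 1 called, beside a list median of 0.01. It did not pass without Hu ZT 2 number 2 (adjusted p = 0.0648) or without Mu ZT 10 number 1 (0.0519) or 2 (0.0502), in edgeR, nor without the libraries of ZT 2 (0.0618), 6 (0.0913), 10 (0.152) or 18 (0.122). In muscle it was higher by 0.43 log2 units (adjusted p = 0.000912, edgeR).

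**Figure D1:**
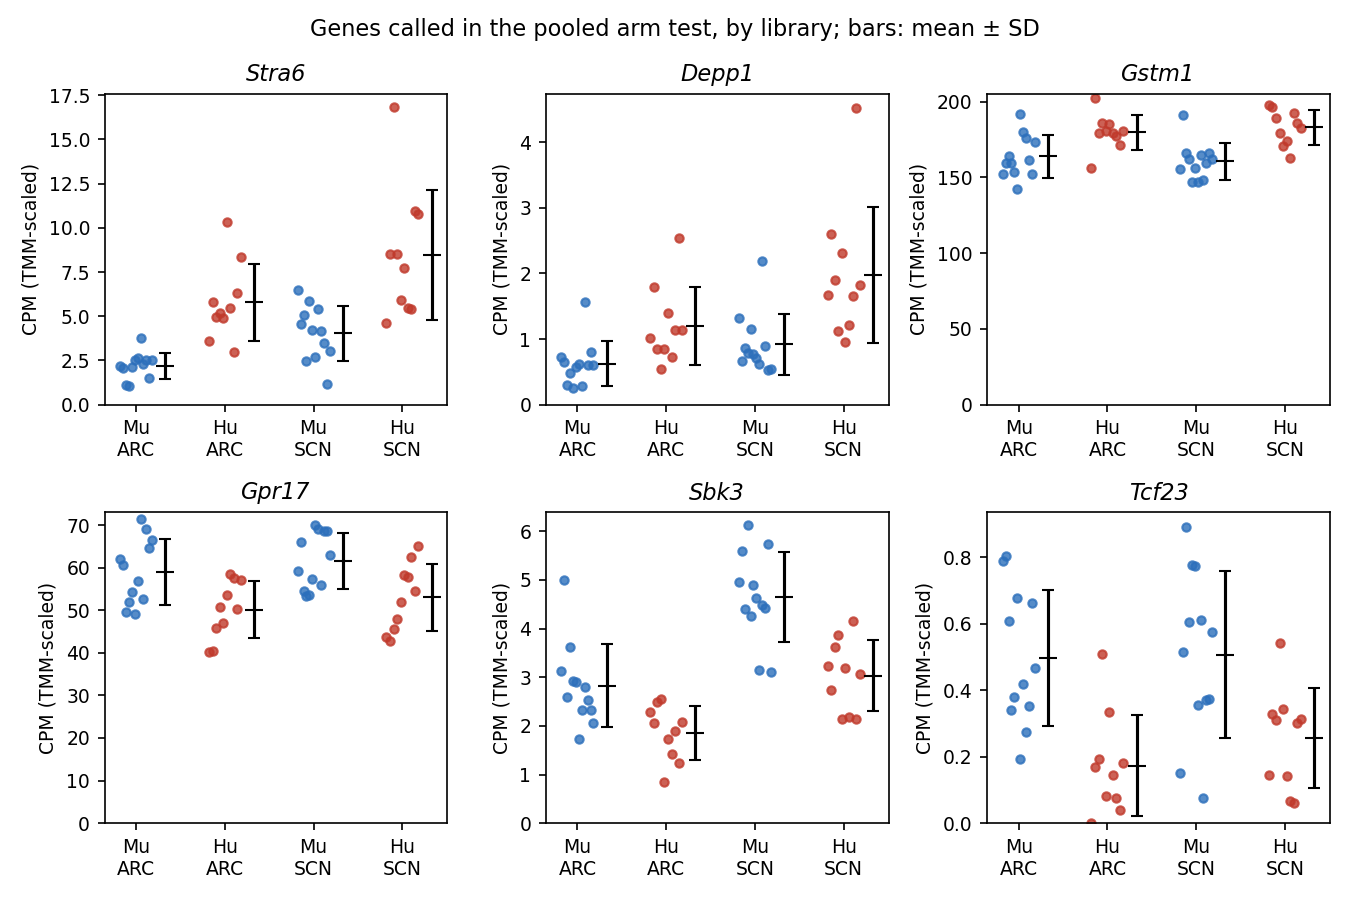
Level in CPM (TMM-scaled, linear axis from 0) of 6 called genes in each of the 44 libraries, by region and arm; points are libraries, and black bars give the mean and SD over 12 Mu or 10 Hu libraries. In ARC 8 of 10 Hu points lie above every Mu point for Stra6, and 7 of 10 lie below every Mu point for Tcf23. The arms overlap in part for each of the 6 genes.

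The sequences upstream of the transcription starts of the pair with the largest rises are shown because both genes were higher in both regions. They were taken from RefSeq (GRCm38.p6) and end where an annotated exon begins. Capitals mark a match to the forkhead motif GTAAANA, searched on both strands.
Depp1, chr6:116650434-116650608, plus strand: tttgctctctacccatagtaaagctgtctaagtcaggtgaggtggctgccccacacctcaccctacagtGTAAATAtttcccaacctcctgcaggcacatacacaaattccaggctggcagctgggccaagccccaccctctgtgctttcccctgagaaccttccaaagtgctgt
Stra6, chr9:58128838-58129087, plus strand, the first of 4 listed starts: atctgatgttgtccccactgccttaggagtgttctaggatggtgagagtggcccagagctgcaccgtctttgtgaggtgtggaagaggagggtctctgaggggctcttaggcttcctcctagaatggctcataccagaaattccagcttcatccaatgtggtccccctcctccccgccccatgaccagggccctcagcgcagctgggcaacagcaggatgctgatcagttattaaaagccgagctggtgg
The Depp1 stretch holds 1 match, at bases 70 to 76, and 10.9% of all 32851 listed promoters hold this motif in their 250 upstream bases. The Stra6 stretch holds no match to it, nor to the nuclear receptor half-site AGGTCA (14% of promoters), the E-box CACGTG (6.02%) or the antioxidant response motif TGACNNNGC (10.2%). The Stra6 stretch lies inside the gene interval given above, downstream of its start at 58063788. Which start is used in these libraries was not tested. A match of letters describes the sequence and shows no binding.

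Among the lower genes, Gpr17 (ENSMUSG00000052229, chromosome 18, 31942997 to 31949636, minus strand) was the 1 member called among 6 tested markers of oligodendrocyte precursors. Its ARC level was 40.2, 50.5 and 58.6 CPM in Hu against 49.2, 58.7 and 71.5 in Mu. In SCN it was 42.9, 53.1 and 65.0 in Hu against 53.3, 61.0 and 70.0 in Mu. Although 4 and 5 of 10 Hu libraries fell below every Mu library, the rest overlapped. The log2 difference was -0.24 ± 0.04 (adjusted p = 0.00361, edgeR), and the Hu mean was lower at all 12 combinations of region and time. The call was lost without the time terms (adjusted p = 0.129) and without the ZT 2 libraries (0.12, edgeR). The precursor markers had a median log2 difference of 0.01, and their summed level was 375 to 420 CPM in Hu and 358 to 433 in Mu in ARC, and 356 to 496 and 366 to 501 in SCN. All 10 markers of mature oligodendrocytes and myelin had positive differences, from 0.07 to 0.22 with a median of 0.13. None of them passed the adjusted test, and 4 (Mal, Mobp, Cldn11 and Mog) had an unadjusted p under 0.05, beside 4.97% of all genes. In bulk tissue, fewer cells of a type and less RNA per cell cannot be told apart.

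Sbk3, an SH3-domain binding kinase, lay at 0.847, 1.99 and 2.54 CPM in Hu ARC libraries against 1.74, 2.69 and 5.00 in Mu, and at 2.14, 3.13 and 4.15 in Hu SCN libraries against 3.10, 4.56 and 6.13 in Mu. All 20 Hu libraries were below the Mu median of their region, and 4 of 10 in ARC and 5 of 10 in SCN were below every Mu library. Sbk3 differed by a log2 value of -0.58 ± 0.10 (adjusted p = 0.00361, edgeR; 0.0846 without the ZT 2 libraries), and it was -1.40 in muscle (adjusted p = 0.0293, edgeR).

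Tlcd1, a membrane protein that limits polyunsaturated phospholipids, lay at 28.8, 31.5 and 34.6 CPM in Hu ARC against 31.2, 35.1 and 41.9 in Mu. In SCN, where it was 34.5, 38.7 and 41.0 in Hu against 32.8, 42.1 and 46.3 in Mu, 0 Hu libraries fell below every Mu library. The log2 difference was -0.15 ± 0.03 (adjusted p = 0.00361, edgeR), or 9.95% lower. It did not pass without the time terms (adjusted p = 0.102) or without the ZT 10 libraries (0.128, edgeR).

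Glud1, the mitochondrial glutamate dehydrogenase, showed the smallest called shift. In ARC it was 423, 441 and 460 CPM in Hu against 452, 474 and 503 in Mu, with 7 of 10 Hu libraries below every Mu library. In SCN it was 401, 427 and 465 against 421, 451 and 477. The log2 difference was -0.09 ± 0.02 (adjusted p = 0.0348, edgeR), and it passed in 12 of 23 fits that each left out 1 mouse or 1 of the 2 unnumbered Hu columns of ZT 22. It was lost in 5 of the 6 fits that each left out 1 time (largest adjusted p = 0.229, edgeR).

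Tcf23, a helix-loop-helix factor, Fam227b and the testis protease Prss50 were scarce. Tcf23 had a median of 0.157 CPM in Hu and 0.443 in Mu in ARC, and 0.307 and 0.546 in SCN, from 0 to 27 counts a library. Its log2 difference was -1.18 ± 0.24 (adjusted p = 0.0188, edgeR), with 7 of 10 Hu libraries in ARC below every Mu library and 2 of 10 in SCN. Without Hu ZT 6 number 1 the adjusted p was 0.0621, and without Mu ZT 10 number 2 it was 0.0531 (edgeR). It did not pass without the libraries of ZT 2 (0.0970), 6 (0.0636) or 14 (0.0954). For Fam227b the log2 difference was -0.52 ± 0.11 (adjusted p = 0.0286, edgeR) from medians of 1.57 in Hu and 2.47 CPM in Mu in ARC, where 7 of 10 Hu libraries were below every Mu library. In SCN the medians were 3.10 and 4.44 CPM, with 1 of 10 below every Mu library. Prss50 had -0.62 ± 0.13 (adjusted p = 0.0375, edgeR) from medians of 0.790 and 1.25 CPM in ARC, again with 7 of 10 below every Mu library, and of 0.688 and 1.04 in SCN, with 2 of 10. Neither gene passed in the fit of SCN alone, nor in that of ARC alone (adjusted p = 0.0580 for Fam227b and 0.229 for Prss50, edgeR). In the 23 fits without 1 mouse or unnumbered column Fam227b passed in 15 and Prss50 in 12. Of the 6 fits without 1 time, Fam227b was lost in 5 (largest adjusted p = 0.178) and Prss50 in 4 (0.276, edgeR).

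**Figure D2:**
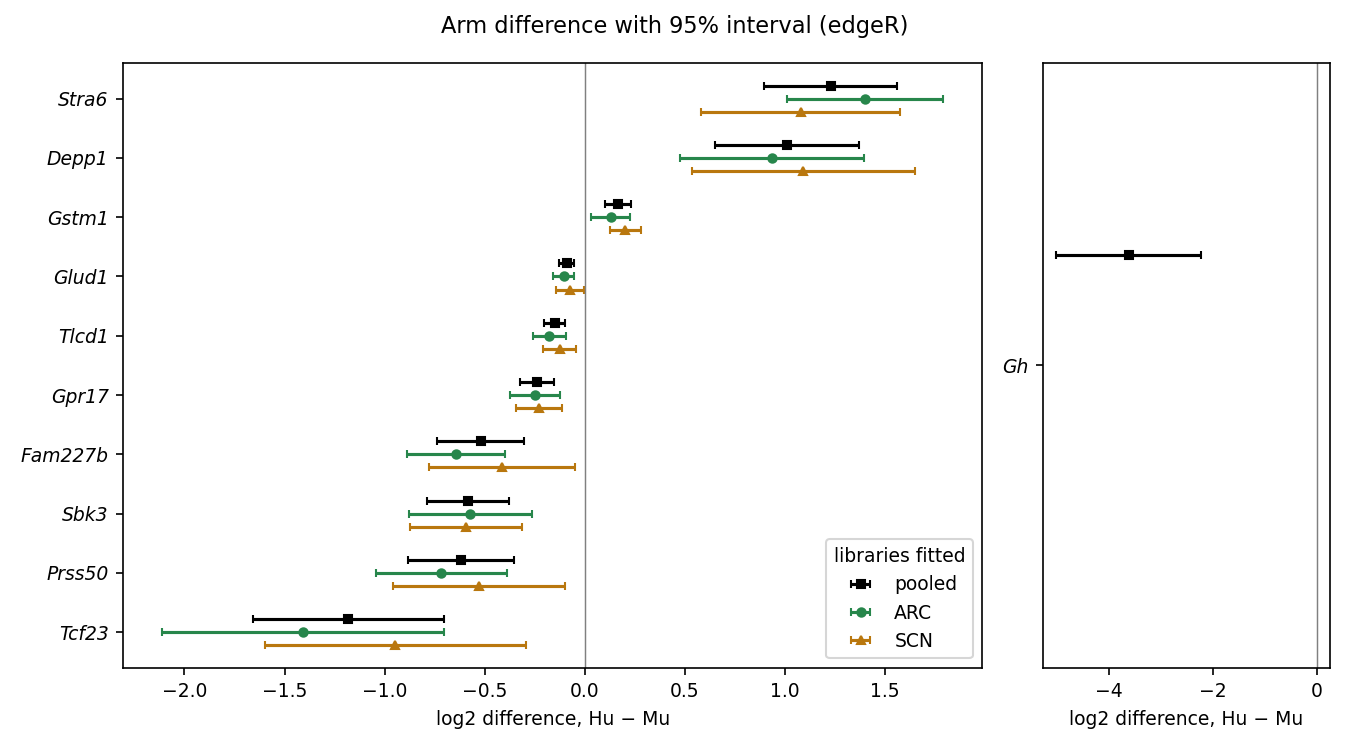
Log2 difference Hu minus Mu (x axis, log2 units) of the 11 called genes, with 95% intervals, from the pooled fit (black squares), the ARC libraries alone (green circles) and the SCN libraries alone (orange triangles). The 10 genes tested in both regions lie on the same side of 0 in each; Gh, on its own axis, was filtered out in each region's own fit.

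Both regions gave these 10 genes the same sign, with Stra6 at 1.40 in ARC and 1.08 in SCN and Tcf23 at -1.41 and -0.95 log2 units. These fits use the same libraries as the pool, so they show how evenly the regions carry it. The difference between regions was tested by an arm by region term: 0 genes passed of 15424 (0%, edgeR), 185 had an unadjusted p under 0.05, and DESeq2 called 2. The smallest p belonged to 4933403O08Rik (adjusted p = 0.317, edgeR), which had at most 2 counts in Mu SCN libraries, at 0 in 11 of 12, and up to 28 in Hu. Fut7 followed, with Hu minus Mu at -0.60 in ARC and 0.46 in SCN, then 4932438H23Rik, at -0.23 and 0.16.

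Gh, growth hormone of the pituitary, had the largest fitted difference and the least even values. In ARC it was 0, 0.0386 and 0.766 CPM in Hu against 0, 0.357 and 28.7 in Mu; in SCN it was 0, 0.0928 and 1.09 against 0, 0.351 and 15.2. Counts were 0 in 4 Hu and 3 Mu libraries of ARC and in 2 and 3 of SCN. The arms overlap at the low end, and the high values came from the Mu mice of ZT 6 (number 1), 10 and 14, in both regions. The log2 difference was -3.62 ± 0.69 (adjusted p = 0.0115, edgeR). It was -1.82 without the ZT 14 libraries (adjusted p = 0.466), and the call was also lost without ZT 2 (0.0618) or ZT 10 (0.148, edgeR). DESeq2 gave -2.70 (adjusted p = 0.0775), and the fit with a rhythm for each arm gave -2.45 (adjusted p = 0.243). Leaving out the Hu mouse of ZT 10 number 2, ZT 14 number 1 or ZT 14 number 2 gave adjusted p of 0.0622, 0.0879 and 0.0592 (edgeR).

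Some other pituitary markers were high in the same libraries as Gh and some were not. Of 9 listed markers 6 were tested; Gh was called, and the median log2 difference over the 6, Gh included, was 0.28. The 5 without Gh ranged from -0.26 to 0.51, and none passed. The summed level of the list, Gh included, was 7.48 to 30.3 CPM in Hu and 8.69 to 53.6 in Mu in ARC, and 0.134 to 1.40 and 0.256 to 17.1 in SCN. Without Gh the sum was 7.44 to 30.2 in Hu and 6.78 to 31.4 in Mu in ARC, and 0.134 to 0.743 and 0.256 to 1.86 in SCN. Prl, the other hormone of that cell lineage, reached 85 counts in Mu ARC and 20 in Mu SCN libraries against 1 and 4 in Hu, and its median was at or near 0 CPM in each group. Its highest values came from Mu libraries high in Gh: 2.96 CPM in ARC at ZT 14 number 2 (Gh 28.7) and 0.791 in SCN at ZT 14 number 1 (Gh 15.2). Cga and Pitx1, defining genes of the anterior lobe and pars tuberalis, had medians of 6.33 and 1.02 CPM in Hu ARC against 2.13 and 0.476 in Mu, and were at or near 0 in SCN. The part of pituitary tissue in the Gh difference was not tested. Pomc, shared by arcuate neurons and the pituitary, reached 119 CPM in ARC and 56.7 in SCN in 1 Mu mouse, number 1 of ZT 6, and its log2 difference was -0.71 ± 0.29 (adjusted p = 0.801, edgeR), or -0.39 with the mouse as block.

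**Figure D3:**
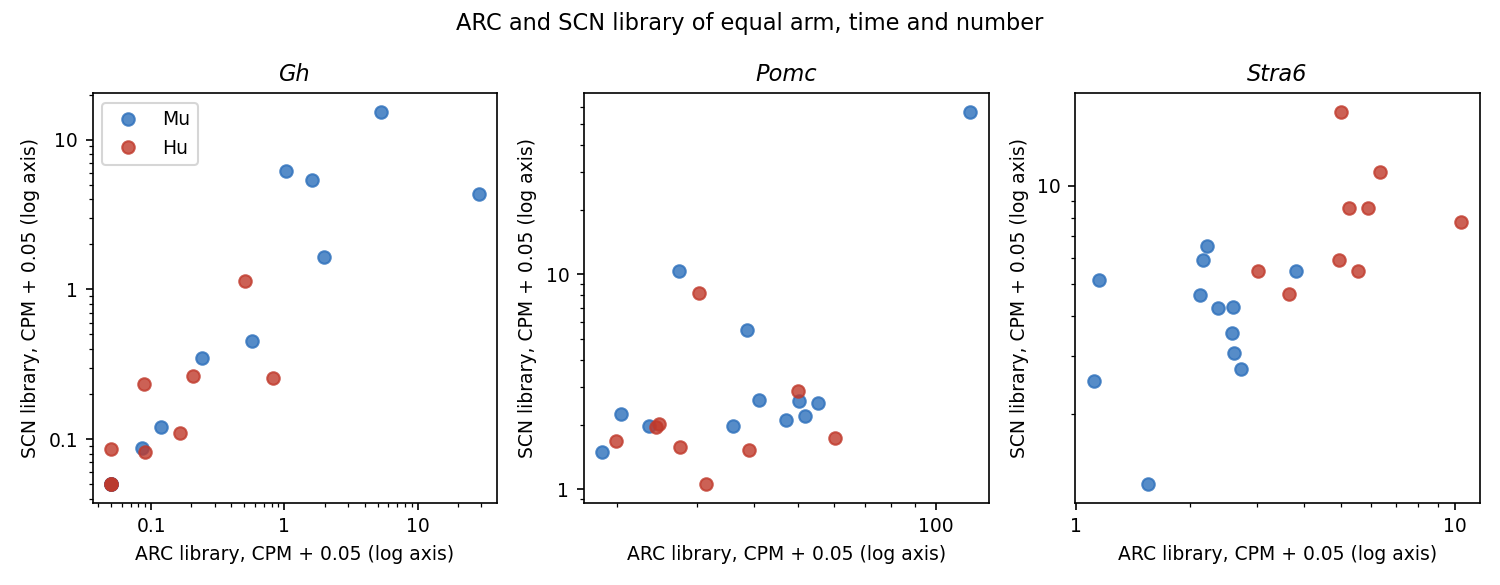
Level of Gh, Pomc and Stra6 in the SCN library (y axis) against the ARC library (x axis) of equal arm, time and number, as CPM + 0.05 on log axes, for 12 Mu and 9 Hu pairs. Gh pairs lie along the diagonal, with the highest in Mu; 1 Mu pair has the highest Pomc in both regions; Stra6 pairs of Hu lie to the right.

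Libraries of equal arm, time and number deviated together for some genes. The residuals keep any rhythm that 1 arm alone has, and partners were shuffled across arms and times. A shared number was thus not told apart from equal arm and time. Over 21 pairs of libraries, the residual of Gh in ARC correlated with that in SCN at Pearson r = 0.782 (permutation p = 2e-05, adjusted 0.00022 over 11 genes). Its Spearman rho was 0.83 (permutation p = 2e-05, adjusted 0.00022), and r was 0.811 without the 2 most extreme pairs. For Stra6 r was 0.495 (permutation p = 0.0224, adjusted 0.0493; rho 0.503, permutation p = 0.0226, adjusted 0.0622; r = 0.584 without 2 pairs). Gpr17 had r = 0.717 (permutation p = 0.00022, adjusted 0.00121; rho 0.509, permutation p = 0.0194, adjusted 0.0622; r = 0.524 without 2 pairs). For Gstm1 r was 0.00335 (permutation p = 0.989, adjusted 0.989; rho -0.0649, permutation p = 0.779, adjusted 0.779; r = 0.035 without 2 pairs). Sbk3 had r = 0.643 (permutation p = 0.00154, adjusted 0.00565) and rho 0.656 (permutation p = 0.00163, adjusted 0.00896). Depp1 had r = 0.569 (permutation p = 0.00652, adjusted 0.0179) and rho 0.456 (permutation p = 0.0386, adjusted 0.0849). Without 2 pairs r was 0.484 for Sbk3 and 0.426 for Depp1. For Tlcd1, Tcf23, Fam227b, Glud1 and Prss50 r ran from 0.0727 to 0.42, and none passed after adjustment. Where such deviations are shared, the 44 libraries hold fewer independent values than their number.

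The arms were also compared over the day. A different daily rhythm between arms, shared by both regions, passed for 0 of 15424 genes (0%, edgeR), with 464 at an unadjusted p under 0.05; DESeq2 called 5. Sgk1, a kinase gene induced by glucocorticoids, had the smallest p (adjusted p = 0.0745, edgeR). Its fitted peak was at ZT 10.7 h with a log2 amplitude of 0.72 in Hu and at ZT 15.9 h with 0.46 in Mu. At ZT 10 its mean was 74.0 CPM in Hu and 43.4 in Mu in ARC, and 90.4 and 53.0 in SCN; at ZT 18 it was 31.7 and 50.2, and 39.1 and 60.6. In each region 1 Mu library of ZT 18 stood high, at 68.1 CPM in ARC and 80.6 in SCN, and its number-2 partner was at 32.2 and 40.7. Fabp7, a brain lipid carrier with a strong daily rhythm, peaked at ZT 1.52 h in Hu and 4.08 h in Mu (adjusted p = 0.196, edgeR). Epx, an eosinophil peroxidase, had the same adjusted p from at most 42 counts a library.

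**Figure D4:**
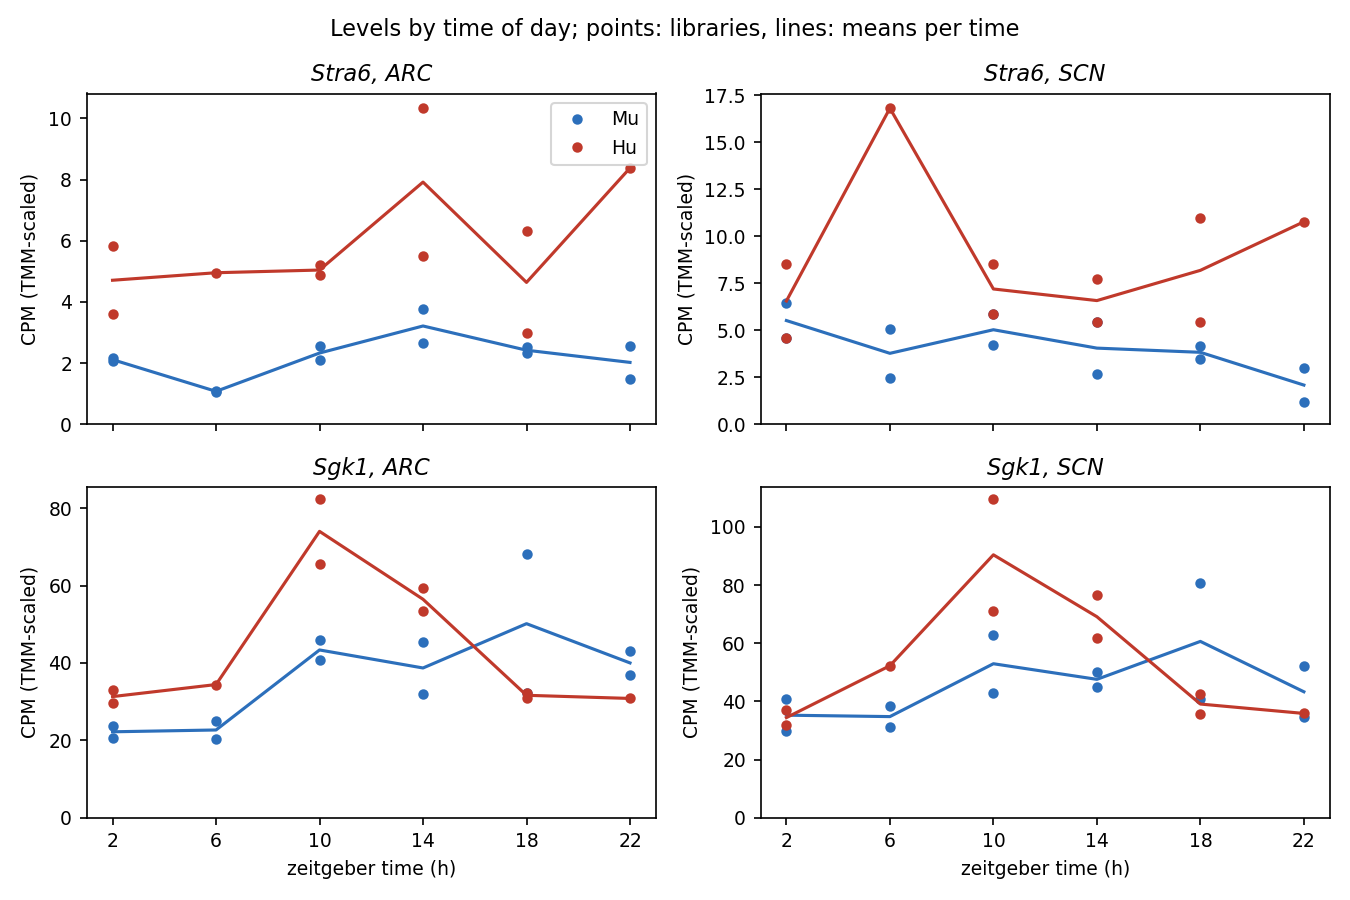
Level in CPM (TMM-scaled) of Stra6 and Sgk1 against zeitgeber time (h), for ARC and SCN; points are libraries and lines join the means per time, with 1 Hu library at ZT 6 and 22 and 2 elsewhere. Stra6 means are higher in Hu at each time, while Sgk1 means are higher in Hu at ZT 10 and lower at ZT 18.

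Groups of genes tied to feeding, the clock and liver signals were described by counts. Of 20 clock genes and outputs 0 passed and 0 had an unadjusted p under 0.05, with differences from -0.08 to 0.14. Of 21 feeding and neuroendocrine peptides 0 passed, and 3 had an unadjusted p under 0.05, beside 4.97% of all genes: Pomc, Cartpt (log2 -0.31 ± 0.11) and Penk (-0.19 ± 0.09). Agrp had 0.31 ± 0.21, or 0.49 with the mouse as block; 1 Mu ARC library reached 26.5 CPM against a Mu median of 5.16. For Npy the pooled value, -0.03 ± 0.20, joined regions of opposite sign, 0.37 in ARC and -0.38 in SCN, and was 0.26 with the mouse as block. In ARC 10 of 10 Hu libraries exceeded the Mu median of 17.3 CPM for Npy, while 1 Mu library reached 67.7. Of 20 receptors for feeding and metabolic signals 0 passed. The growth hormone and IGF axis list, which leaves out Gh itself, had 0 of 24 genes pass. Cish, a feedback inhibitor of cytokine receptors, was nearest in the latter (0.29 ± 0.08, adjusted p = 0.166 by edgeR). None of 20 sterol synthesis genes and none of 15 unfolded protein response genes had an unadjusted p under 0.05, the latter ranging from -0.03 to 0.03 log2 units. Hsd11b1, which regenerates active glucocorticoid, had -0.39 ± 0.10 (adjusted p = 0.121, edgeR), and the metallothioneins Mt1 and Mt2 had 0.22 ± 0.07 and 0.27 ± 0.09.

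Interferon and antigen presentation genes present peptides to T cells or answer interferon. Of 27 tested, 0 passed the adjusted edgeR test, while 10 had an unadjusted p under 0.05, beside 4.97% of all genes, each with a negative difference. The median was -0.11. The largest were the class II genes H2-Ab1 (-0.99 ± 0.27) and H2-Aa (-0.93 ± 0.26) and their chaperone Cd74 (-0.72 ± 0.19, adjusted p = 0.139 by edgeR). Cd74 ranged from 1.62 to 6.09 CPM in Hu ARC and from 2.49 to 12.6 in Mu ARC, and from 3.52 to 17.8 and from 5.51 to 28.9 in SCN, so the arms overlap. H2-Q7, a class I gene with near-identical neighbours, lay just outside the threshold (-1.01 ± 0.22, adjusted p = 0.0528, edgeR), as did Myoc (-1.13 ± 0.25, 0.0580) and Txlnb (-0.55 ± 0.12, 0.0609). Just inside it lay Prss50 and Glud1. Next among the higher genes came the chemokine Cxcl12 (0.49 ± 0.12, adjusted p = 0.0764), the pericyte channel Kcnj8 (0.33 ± 0.08, 0.0800) and the integrin Itgax (0.62 ± 0.15, 0.0842), all by edgeR.

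Markers of cells that a dissection could carry along were read beside these results. Of 11 microglial markers 0 passed and 1, Csf1r, had an unadjusted p under 0.05 with a negative difference. All 4 tested erythrocyte genes had positive differences, from 0.42 to 0.58, and 0 passed; their summed level was 50.7 to 273 CPM in Hu and 28.6 to 221 in Mu in ARC, and 64.1 to 346 and 46.5 to 250 in SCN. Of 10 choroid plexus markers 0 passed, and 2, Clic6 and F5, had an unadjusted p under 0.05 with a negative difference. Of 8 pericyte and smooth muscle markers 0 passed, and 2, Kcnj8 (0.33) and Abcc9 (0.34), had an unadjusted p under 0.05. The median of the 8 was 0.01 and 4 of 8 were positive. Each of these counts stands beside 4.97% of all genes. The part of these cells in the 11 calls was not tested.

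**Figure D5:**
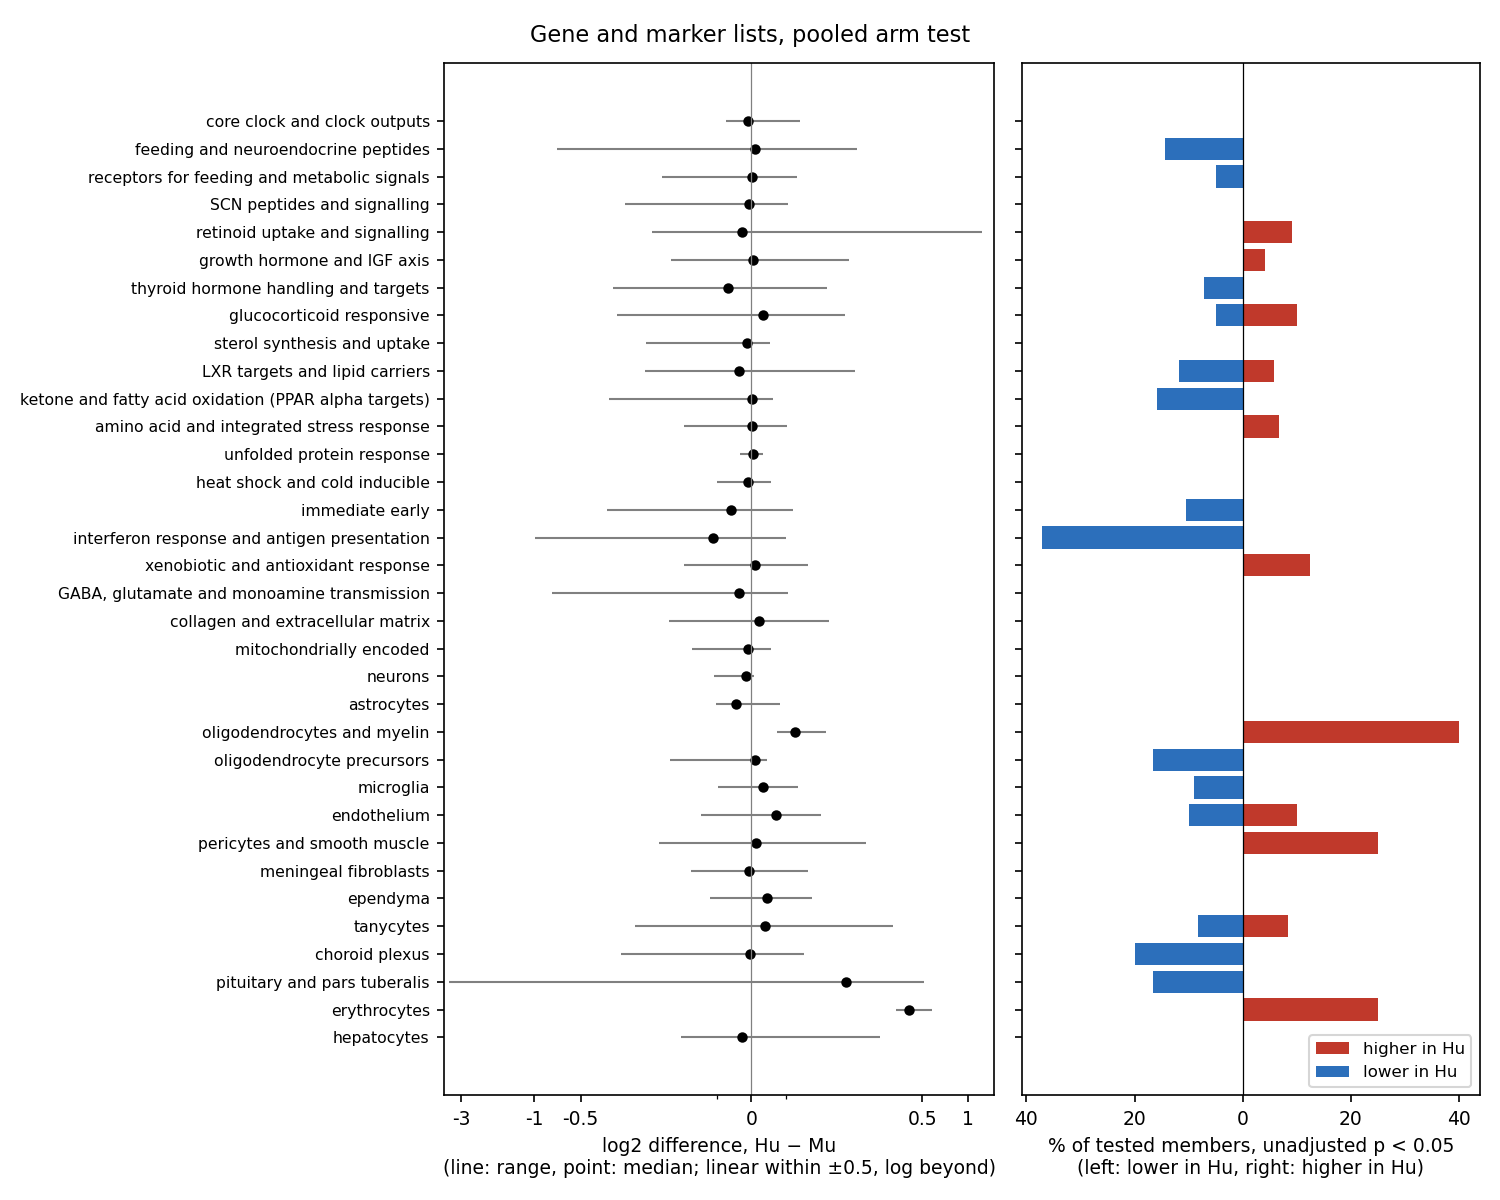
Left, range (line) and median (point) of the log2 difference Hu minus Mu over the tested members of each gene or marker list, on an axis linear within 0.5 log2 units of 0 and logarithmic beyond; right, the percent of tested members with an unadjusted p under 0.05, higher in Hu to the right and lower to the left. Most medians lie near 0. The medians of myelin, pituitary and erythrocyte markers lie to the right (0.13, 0.28 and 0.46). Interferon and antigen presentation genes have a median of -0.11.

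Skeletal muscle of the same 2 arms, with 15 Hu and 12 Mu libraries, was fitted apart and gave 3443 calls among 14197 genes tested (24.3%). Of the 11 hypothalamic genes 8 were tested in muscle, 5 were called there, and those 5 (Depp1, Gstm1, Sbk3, Fam227b and Glud1) had the same sign. Stra6, Tlcd1 and Tcf23 had the opposite sign in muscle and were not called. The labels do not say whether muscle and hypothalamus came from the same mice.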

How the data were processed

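The authors deposited raw counts per gene, 1 column per library, with no normalization. Per the labels, RNA came from RNeasy columns and libraries from a directional NEBNext Ultra II kit; per the submitters' processing notes STAR and the builds GRCm38/mm10 were used, and the counting program and annotation are not given in the sources used here. Of 20415 row identifiers, 20329 matched a gene name. Positions are from GENCODE M21 (GRCm38).

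Genes were kept by filterByExpr, scaled by TMM and tested in edgeR 4.0.16 (R 4.3.3) by the quasi-likelihood F test on region, a cosine and a sine of ZT (24 h period) and arm, over 44 libraries, with Benjamini-Hochberg adjustment over all genes and a threshold of 0.05. Errors after ± are SE. limma 3.58.1 fitted the mouse as a block, and DESeq2 1.42.0 was an alternative. The scripts were tested on simulated data. The 2 Hu columns at ZT 22 matched a group but no numbered sample, and each was a block of its own. Labels do not say that libraries came from separate mice, so p-values measure the spread between libraries. The counts are without molecular identifiers. Pairs of libraries of equal arm, region and time differed by more than counting error. Their Poisson chi-square per gene ran from 5.06 to 77.9, over genes with at least 40 counts in the pair.

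Named genes are the called genes, up to 12 a direction (the 6 of smallest p where fewer than 6 passed), list members that passed, the 3 genes of smallest p in each interaction test, and label checks; genes just outside the threshold, list members under an unadjusted p of 0.05, and other list members were named after their values were seen. The comparison and all lists were chosen with earlier results of these data known. Results for 1 gene are not reported here.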

Additional observations from a re-analysis of the deposited data

Results flagged for a closer look

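Highest values were checked by Dixon's test at 95% in 68 sets of 10 Hu libraries (1 gene and 1 region each). In 9 sets the highest value stood far from the other libraries. The values of a set span all times of day, and the sets share the same libraries. The nominal rate of about 1 in 20 is thus no yardstick for the 9. In SCN at ZT 6, number 1, the Hu library stood high for Stra6 (16.8 CPM, next 10.96), Gh (1.09, next 0.212), Pomc (8.14, next 2.81) and H2-Q7 (1.81, next 1.10). It is the only Hu library of that time in SCN. The SCN library of ZT 18, number 2, stood high for Depp1 (4.53 CPM, next 2.59), that of ZT 10, number 2, for Itgax (3.72, next 2.03), and that of ZT 2, number 1, for 4933403O08Rik (1.01, next 0.185). In ARC, ZT 14 number 2 stood high for Vip (14.8 CPM, next 6.74) and ZT 10 number 1 for Txlnb (2.23, next 1.42). Stra6 passed in each of the 23 fits that left out 1 mouse or unnumbered column, the Hu mouse of ZT 6 included, and so did Depp1.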

How the results depend on the processing

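The pooled arm count, 11, became 39 in DESeq2, 1 in ARC alone, 0 in SCN alone (352 at an unadjusted p under 0.05), 4, 7 and 22 without ZT 2, ZT 10 and ZT 22, and 7 with an absolute log2 difference over 0.5. It was 0 with counts summed per mouse, 0 also with the Hu ZT 22 columns added as 1 mouse (Stra6 adjusted p = 0.076, edgeR) and 0 in limma on the mean log2 CPM per mouse; the last 2 were chosen after seeing the data. Leaving out 1 mouse or 1 unnumbered column gave 7 to 21: 7 without Hu ZT 14 number 1, 17 without Hu ZT 2 number 1, 18 without Hu ZT 10 number 1 or Mu ZT 6 number 1, 19 without Mu ZT 18 number 1 and 21 without Mu ZT 22 number 2. Stra6, Depp1, Gpr17, Sbk3 and Tlcd1 passed in 23 of these 23 fits. The arm by region count, 0, became 2 in DESeq2 and was 0 to 0 with 1 mouse left out. The arm by time count, 0, became 1 without the filter, 5 in DESeq2 and 0 to 5 with 1 mouse left out (5 without Mu ZT 18 number 2). No called gene changed sign in an alternative; 10 other named genes did in at least 1 of up to 45, without passing: Fut7 in 20, Npy in 15 (up to 0.369), Nms in 13, Prok2 in 8, 4933403O08Rik in 3, and Avp, Epx, Fah, Vip and 4932438H23Rik in 1 each. The causes were not tested. As a block, the replicate number gave 11 arm calls (8 shared) and the mouse 14, also with the ZT 22 columns as 1 mouse; both gave 0 in the other tests. Over 21 pairs of equal arm, time and number the mean correlation of deviations was 0.119 (-0.147 to 0.397, 12 over 0.1), against -0.005 for other pairs. In 8 the own partner was the best, so not every pair deviated together. Most other pairs differ in arm or time, so the gap cannot tell a shared mouse from equal arm and time. The labels do not give a shared mouse either. The counts of Tcf23, Gh and Epx reach 0 in some libraries, and the part of depth in this was not tested.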
